A study of Arabidopsis thaliana with 12 samples.

Results

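Seedlings of the Arabidopsis thaliana mutant hai1-2 were compared at low water potential and on control medium, across all transcripts the arrays measured. The arrays were chosen by their titles, 3 of hai1-2 at -1.2 MPa and 3 of hai1-2 at -0.25 MPa, which make up 6 of the 12 arrays of the series. The stressed plants were hai1-2 seedlings moved at an age of 7 days to agar plates infused with polyethylene glycol of molecular weight 8000, which lowers the water potential to -1.2 MPa, and collected 96 h later. Their controls were hai1-2 seedlings moved at the same age to fresh plates at -0.25 MPa and collected after the same 96 h. The other 6 arrays held the wild type Col-0, the background of the mutant, under the same pair of conditions, and they entered the fit and the comparison of genotypes. All groups shared a medium without sugar, continuous light of 85 to 100 micromol photons per square metre and second, and 25 °C. Each of 3 independent experiments gave 1 whole-seedling sample to every group, and each sample was hybridised to 1 Affymetrix array.

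HAI1 encodes a type 2C protein phosphatase of clade A, the group of phosphatases that holds back abscisic acid (ABA) signalling until receptors bound to the hormone inhibit it. Low water potential raises ABA, which induces protective proteins, slows growth and shifts carbon and nitrogen use, and HAI1 is itself induced by ABA and drying. The mutant carries 1 allele, whose kind of lesion the labels do not give. No probe set is paired with HAI1 in the annotation used here, so the mutant label was not checked by a signal paired with the gene. The unnamed 247723_at, given with the comparison of genotypes, may measure it. Whole seedlings mix root, leaf and stem, and in such samples fewer cells of a type and less RNA per cell cannot be told apart.

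Signals are in the linear units of the deposited table, and changes are differences of log2(signal + 16), stressed minus control hai1-2, given with the standard error (SE) of the limma fit at 3 arrays per group. A probe set rose or fell where limma's Benjamini-Hochberg adjusted p, over 17059 probe sets, was under 0.05. Median signals were 212.4, 202.9 and 202.7 on the stressed hai1-2 arrays and 194.85, 195.8 and 197.35 on the control hai1-2 arrays, without overlap. Stressed arrays correlated with each other at 0.974 to 0.977 and control arrays at 0.959 to 0.982, against 0.848 to 0.862 between a stressed and a control array. The ratio of 5′ to 3′ GAPDH signal, a sign of RNA integrity, was 1.11 ± 0.0585 in stressed and 0.943 ± 0.0894 in control hai1-2 (SD, n = 3), without overlap, while the ratios of actin and ubiquitin overlapped. A probe set for 25S ribosomal RNA read 2796, 1500 and 1031 in stressed hai1-2, against 223, 923 and 660 in control hai1-2, also without overlap. The part of RNA quality in the changes below was not tested.

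The response ran in both directions, with more rises than falls among the largest changes. Of the 17059 probe sets, 3390 rose (19.9%) and 3031 fell (17.8%), 37.6% in all, and an unadjusted p under 0.05 was reached by 7940, where chance gives 853. A call with at least a 2-fold change was reached by 1265 that rose (7.42%) and 1436 that fell (8.42%). Past a log2 change of 3 there were 132 rises and 74 falls, past 4 there were 71 and 17, and past 5 there were 32 and 2. The median change was 0.84 among called rises and -0.96 among called falls, beside 0.07 over all probe sets. All 3 stressed arrays lay above all 3 control arrays for 4897 probe sets (28.7%) and below them for 3972 (23.3%).

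Calls were more frequent at higher signal. Of 4 equal groups of probe sets by mean signal, the dimmest had 14.8% rising and 11.8% falling, and in the brightest 22.6% rose and 23.8% fell. Experiment by experiment, 3367 of the 3390 rises and 3015 of the 3031 falls kept their sign in all 3 experiments. The calls came from these same arrays, so this is not separate support. For 3303 of the rises and 2978 of the falls stressed and control arrays did not overlap, which fixes the sign. The changes of 1 experiment correlated with those of another at 0.783 to 0.855 across probe sets, which are not independent replicates.

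**Figure D1:**
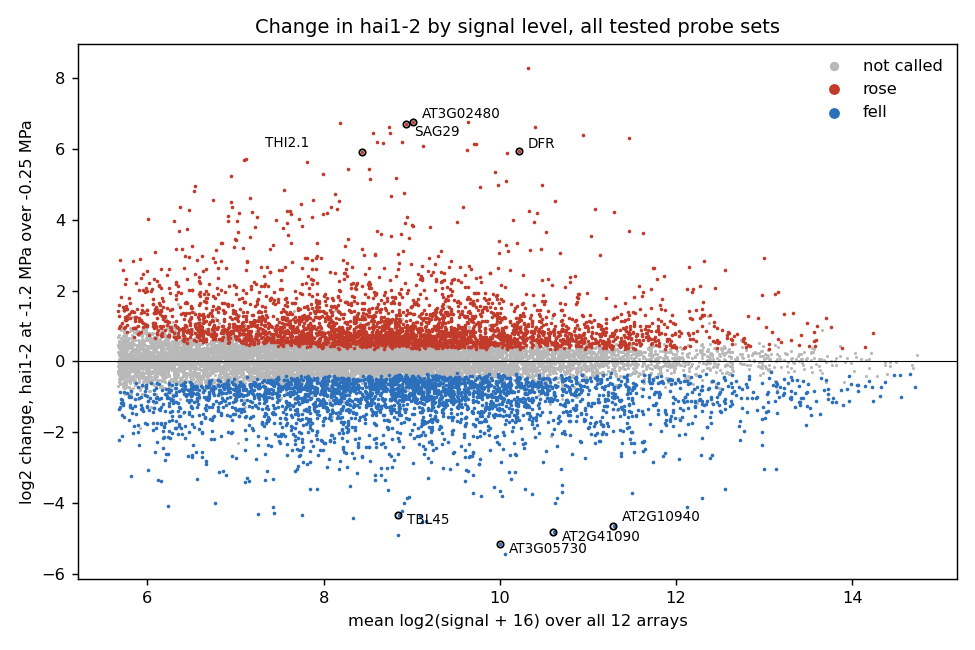
Each point is 1 of 17059 probe sets, with its mean log2(signal + 16) over all 12 arrays on the horizontal axis and its log2 change in hai1-2, -1.2 over -0.25 MPa, on the vertical axis. Red points rose (3390), blue points fell (3031) and grey points were not called, and changes run between 8.27 and -5.44.

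The largest rises were of genes with little signal on control plates. AT3G02480, a LEA-type gene, read 7392, 6094 and 9564 in stressed hai1-2, against 41.2, 67.8 and 54.6 in control hai1-2, a change of 6.76 ± 0.29 (limma adjusted p = 2.4e-09). SAG29, the sugar transporter SWEET15 of senescing leaves, read 5046, 4979 and 7621 in stressed hai1-2, against 29.8, 48.2 and 41.7 in control hai1-2, a change of 6.71 ± 0.24 (limma adjusted p = 5.9e-10). Stressed and control arrays of both genes were far apart, and the stressed arrays of each stayed close together. Non-overlap of stressed and control arrays was a condition for naming the genes of largest change and lowest p. Control signals this near the added constant of 16 make the size of such a change depend on that constant. THI2.1, a jasmonate-inducible thionin, read 3863, 3186 and 3378 in stressed hai1-2, against 27.8, 57.7 and 46 in control hai1-2 and changed by 5.89 ± 0.32. AT1G16850 (6.16) and AT2G21820 (6.45) were the other 2 genes of the 10 largest rises outside the LEA and anthocyanin groups described below. On control plates AT2G21820 ranged from 5.5 to 88.7, and its change ran from 5.60 to 7.67 over the experiments.

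Rises of lowest p held further hydrolases. AT1G57590, a gene for a pectin acetylesterase, read 2599, 2874 and 3451 in stressed hai1-2, against 79.8, 111 and 91.8 in control hai1-2, a change of 4.76 ± 0.17 (limma adjusted p = 5.9e-10). BETA-VPE, a vacuolar processing protease best known from seeds, read 1696, 2509 and 1858 in stressed hai1-2, against 128, 146 and 103 in control hai1-2 and changed by 3.84 ± 0.19. AT1G62290, an aspartic protease gene, read 3490.4, 4219 and 4933 in stressed hai1-2, against 270.5, 254 and 224 in control hai1-2 and changed by 3.98 ± 0.20. In each of these 3 genes all stressed arrays lay far above all control arrays, and the arrays of a group stayed close together. AT1G09500 was at or near the floor in control hai1-2, at 19.0, 1.6 and 1.4, against which stressed hai1-2 read 1142, 983 and 1340.

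Among the falls, some genes came down to the noise level of the arrays and others stopped well above it. AT2G41090, a calmodulin-like gene, read 152, 347 and 292 in stressed hai1-2, against 6327, 8007 and 8069.8 in control hai1-2, a change of -4.8 ± 0.26 (limma adjusted p = 1.5e-08). TBL45, of the family that acetylates wall polysaccharides, read 60.9, 119 and 76.5 in stressed hai1-2, against 1713, 2277 and 1959 in control hai1-2 and changed by -4.33 ± 0.24. The glutaredoxin gene AT1G06830 read 3.2, 29.2 and 39.7 in stressed hai1-2, against 719, 662 and 683 in control hai1-2 and changed by -4.27 ± 0.30. Stressed replicate 1 was the lowest array for each of the 3, and no stressed array came near a control array. The falls with the lowest p were narrower: AT1G09750, the apoplastic aspartic protease gene AED3, read 318, 391 and 444 in stressed hai1-2, against 5918, 6125 and 5038 in control hai1-2 (-3.84 ± 0.16), and AT5G63180, a pectate lyase gene, read 80.8, 73.4 and 117 in stressed hai1-2, against 1571, 1354 and 1457 in control hai1-2 (-3.81 ± 0.17). AT3G16370, of the GDSL lipases, changed by -2.57, AT4G16980 by -3.71 and the leucine-rich repeat gene AT1G49750 by -3.59.

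The 3 experiments did not give large falls of equal depth. Among the 74 probe sets that fell by more than 3 on the log2 scale, stressed replicate 1 was the lowest stressed array for 56, with a median signal of 79.0, against 134 and 128 for stressed replicates 2 and 3. In AT3G05730 the change was -6.47 in experiment 1, -4.59 in experiment 2 and -4.40 in experiment 3, and in AT2G10940 it was -5.65, -4.23 and -4.07. Among the 132 rises past 3, stressed replicate 1 was the lowest stressed array for 72, so on that array both the largest rises and the largest falls tended to the low end. Control replicate 2 was the highest control array for 43 of the 74 falls and 57 of the 132 rises. The 25S ribosomal RNA signal was also highest on stressed replicate 1, at 2796, and its part in these values was not tested.

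**Figure D2:**
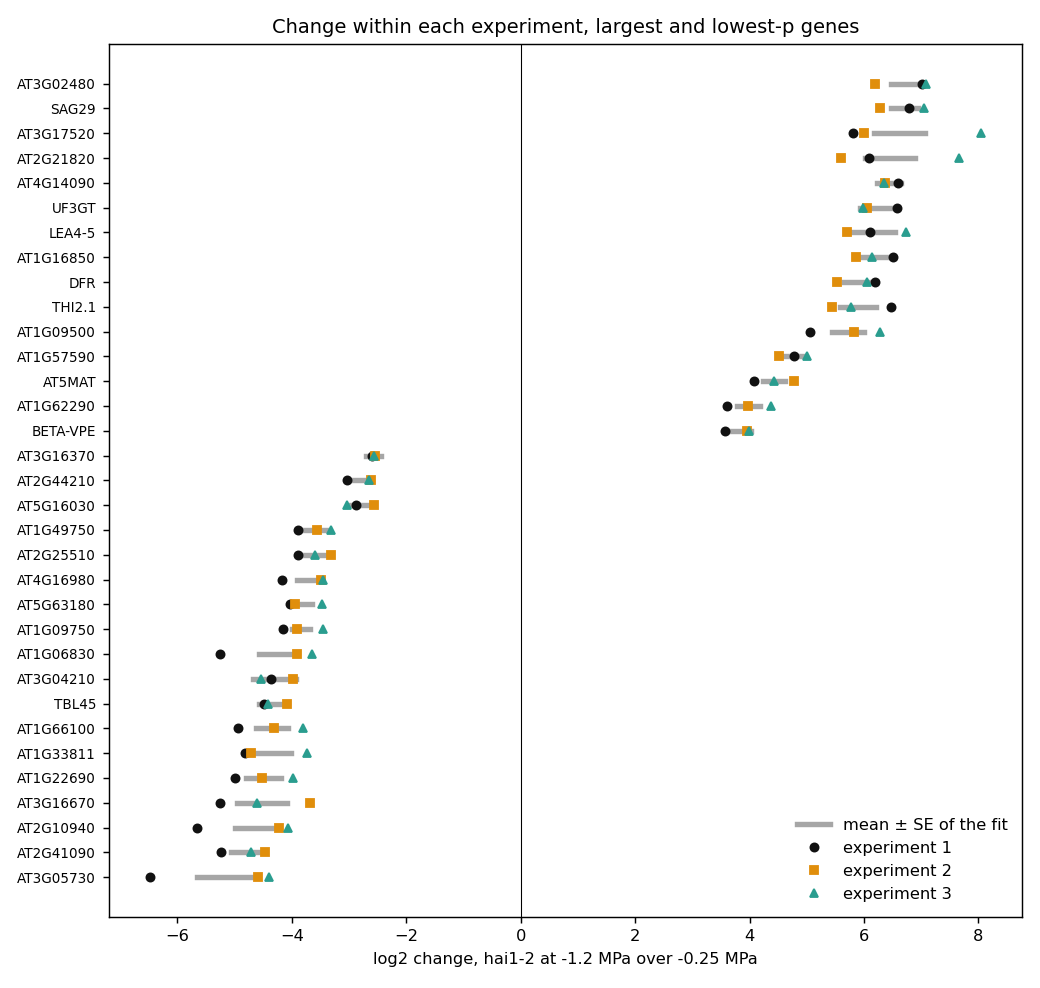
Log2 changes in hai1-2, -1.2 over -0.25 MPa, within each of the 3 experiments (black circles, orange squares, green triangles) for the genes with the 10 largest rises, 10 largest falls, and 10 rises and 10 falls of lowest p. Grey bars span the fitted mean ± SE. AT3G05730 changed by -6.47 in experiment 1 and by -4.59 and -4.40 in the others, while AT3G16370 stayed between -2.54 and -2.61.

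Transcripts of late embryogenesis abundant (LEA) proteins and dehydrins, small hydrophilic proteins that protect drying cells and seeds, rose where they changed. Of 36 probe sets listed, 20 passed the filter on low mean signal, and of these 17 rose, none fell and 3 did not pass, with a median of 2.03 against 0.07 over all probe sets. This and every later list count stands beside 19.9% rising and 17.8% falling over all probe sets. A gene that is dim on control plates can pass that filter through its stressed arrays alone. Without the filter 20 of the 36 rose, none fell and 16 did not pass, with a median of 1.08. LEA4-5 read 3865, 5521 and 5025 in stressed hai1-2, against 40.7, 90.5 and 31.1 in control hai1-2, a change of 6.18 ± 0.36 (limma adjusted p = 3.2e-08), with no overlap. COR15A, a chloroplast cryoprotective protein, read 8303, 7602 and 12799 in stressed hai1-2, against 90.7, 176 and 178 in control hai1-2 and changed by 5.88 ± 0.32. Its near relative COR15B did not follow: it read 328, 324 and 482 in stressed hai1-2, against 292, 429.9 and 378 in control hai1-2, and the arrays overlapped (0.04, limma adjusted p = 0.953). The dehydrin LTI30 changed by 3.63, LEA18 by 4.26, DI21 by 3.69 and AT2G23110 by 3.13. At the other end AT1G54410 (0.73) and AT2G44060 (0.78) were already abundant on control plates, at means of 8585 and 3145.

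Among 12 other genes named for ABA, drought or salt, 7 rose, 2 fell and 3 did not pass (median 1.07). HIS1-3, a linker histone that drought induces, read 4717, 6473 and 5407 in stressed hai1-2, against 391, 395 and 266 in control hai1-2, a change of 3.93 ± 0.20 (limma adjusted p = 8.9e-09). PUB19, a ubiquitin ligase that acts in drought signalling, read 1630.4, 1089.6 and 1248 in stressed hai1-2, against 104, 45.7 and 34.1 in control hai1-2 and changed by 4.2 ± 0.29. Every stressed array was above every control array in both. XERICO, a RING-type protein whose overexpression raises ABA, changed by 1.78 ± 0.15, and osmotin OSM34 by 1.82 ± 0.27. AKINBETA1, a subunit of the energy-sensing SnRK1 kinase, went the other way, at 409, 408 and 406 in stressed hai1-2, against 1200.5, 2505 and 2117 in control hai1-2 (-2.14 ± 0.30). HVA22C, of a family known in barley for induction by ABA, was the other fall (-0.56 ± 0.20, limma adjusted p = 0.0434). Its call was lost without stressed replicates 1 or 2, any 1 control array or replicate 2 of stressed Col-0, with no filter and without the intensity trend. DI19, named for induction by drought, was abundant in both groups and did not pass (-0.09), and neither did the salt-responsive zinc finger STZ (-0.05). Among 17 chaperones and heat shock proteins, 6 rose, 3 fell and 8 did not pass (median 0.25). The count of falls was near the 17.8% that fell over all probe sets, where 19.9% rose. ATHSP22.0, a small heat shock protein of the secretory pathway, changed by 3.35, HSA32, a factor of acquired thermotolerance, by 2.06 and Fes1B, an HSP70 exchange factor, by -1.23. Without stressed replicate 2, 1 chaperone fell instead of 3.

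Anthocyanin enzymes had the highest median change of the gene lists described here. Of 7 flavonoid and anthocyanin probe sets, 6 rose and 1 did not pass, with a median of 4.43. DFR, the reductase at the entry to anthocyanins, read 9406, 12096 and 11402 in stressed hai1-2, against 113, 246 and 156 in control hai1-2, a change of 5.93 ± 0.28 (limma adjusted p = 5.9e-09). AT5MAT, which adds malonate to the pigment, read 856, 1099 and 1239 in stressed hai1-2, against 35.5, 24.8 and 42.2 in control hai1-2 and changed by 4.43 ± 0.19. The control arrays of both lay far below all stressed arrays. The sugar-adding enzymes UF3GT and AT4G14090 changed by 6.2 and 6.44, while CHIL, which assists chalcone formation, and UGT78D2, a flavonoid 3-O-glucosyltransferase, changed less, by 2.29 and 2.43. The rhamnosyltransferase of flavonols, UGT78D1, did not pass (0.35 ± 0.25). In the UGT family at large, which attaches sugars to hormones, flavonoids and other small molecules, the 35 tested split into 17 that rose, 5 that fell and 13 without a call (median 0.58, or 0.36 over all 47 listed with no filter). UGT73B5 read 525, 448 and 461 in stressed hai1-2, against 67.3, 107 and 102 in control hai1-2 and changed by 2.21 ± 0.20. UGT85A5 changed by 1.95, the monolignol glucosyltransferase UGT72E2 by 1.69, and among the falls UGT85A4 by -1.44 and UGT88A1 by -0.67. Without stressed replicate 3 or without control replicate 1, 2 of the UGT genes fell instead of 5.

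**Figure D3:**
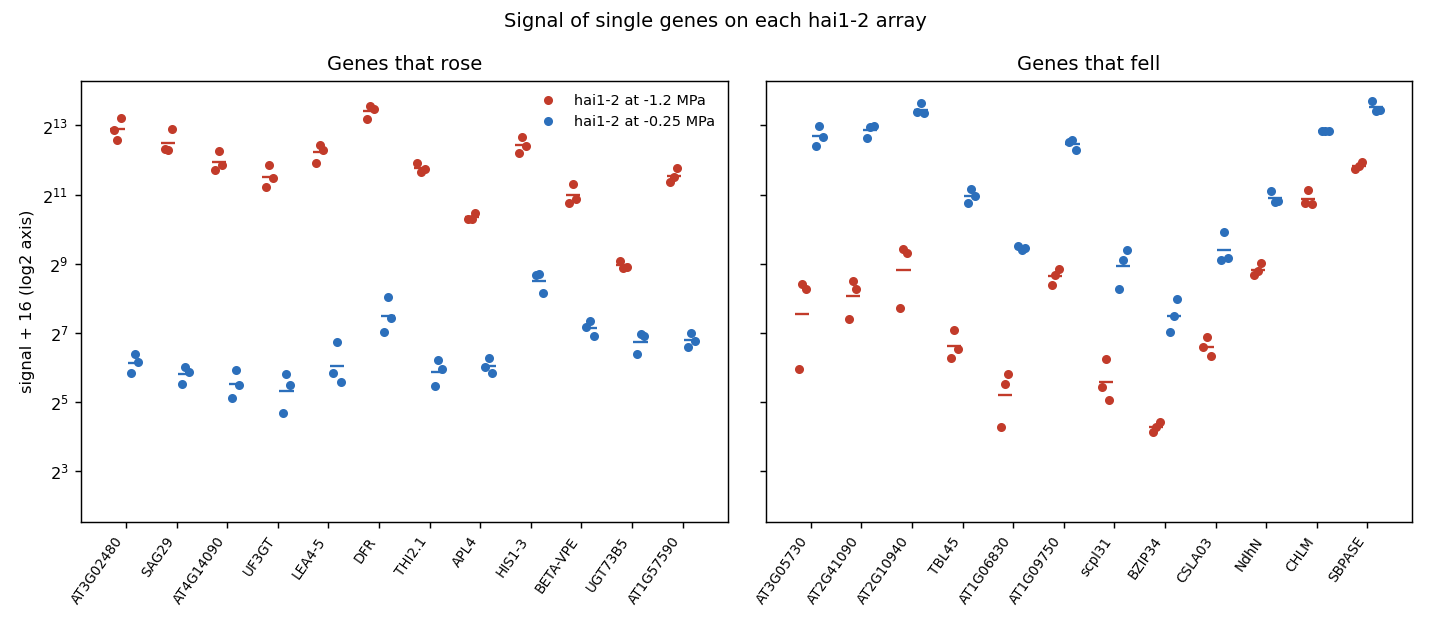
Signal plus 16, on a log2 axis, of 12 genes that rose (left panel) and 12 that fell (right panel) on each hai1-2 array. Red points are the 3 arrays at -1.2 MPa and blue points the 3 arrays at -0.25 MPa, and short lines are means on the log2 scale. Red and blue points do not overlap for any gene shown, and the lowest red point of AT3G05730 (45.2) and AT2G10940 (196) is replicate 1. Genes of largest change or lowest p were drawn only from those without such overlap.

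Sugar transporters split by member. SWEET proteins let sugars move down their gradient across membranes, and the tonoplast transporters TMT1 to TMT3 load monosaccharides into the vacuole. Of 16 tested, 6 rose, 6 fell and 4 were not called (median 0.15, or -0.16 over all 20 listed with no filter). SWEET4, a hexose transporter, read 1265, 2267 and 1543 in stressed hai1-2, against 13.8, 28.2 and 41.8 in control hai1-2, a change of 5.29 ± 0.33 (limma adjusted p = 5.5e-08). SWEET2, a vacuolar member, read 131, 106 and 164 in stressed hai1-2, against 575, 615 and 435 in control hai1-2 and changed by -1.9 ± 0.28. Neither showed overlap between stressed and control arrays. TMT2 changed by 1.65 and TMT1 by -0.72, in opposite directions, and so did SWEET13 (1.55) and SWEET11 (-1.01), which both export sucrose to the phloem. The vacuolar SWEET16 changed by -1.53 and SWEET17 did not pass (-0.14).

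All 7 starch enzymes tested rose, with a median change of 1.94. APL4 and APL3, large subunits of the ADP-glucose pyrophosphorylase that commits carbon to starch, led them. APL4 read 1231, 1226 and 1402 in stressed hai1-2, against 48.4, 61.1 and 40.9 in control hai1-2, a change of 4.31 ± 0.23 (limma adjusted p = 1.5e-08), and APL3 changed by 4.09 ± 0.22. Genes of starch breakdown moved the same way: the alpha-amylase AMY1 read 471, 494 and 225 in stressed hai1-2, against 37.3, 48.9 and 55.5 in control hai1-2 (2.64 ± 0.29), and the disproportionating enzyme DPE1 changed by 0.76. The third stressed array of AMY1 was lower than the other two and still above every control array. The branching enzyme SBE2.2 changed by 0.59, and of 2 glucan water dikinase loci AT4G24450 changed by 1.94 and AT5G26570 by 0.51. SBE2.2 lost its call without stressed replicate 3 or control replicates 2 or 3, with median centring and with the 6 hai1-2 arrays alone, and AT5G26570 without stressed replicates 1 or 3 or control replicates 1 or 2. Both are counted among the 7.

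Enzymes that release carbon and nitrogen from reserves did not move as a body. ICL, isocitrate lyase of the glyoxylate cycle, read 1735, 589.5 and 580.1 in stressed hai1-2, against 76.3, 111 and 112 in control hai1-2, a change of 2.91 ± 0.57 (limma adjusted p = 0.00120). Stressed replicate 1 was well above the other stressed arrays, and all were above control. AIM1, of fatty acid beta-oxidation, changed by 0.96 and pyruvate, orthophosphate dikinase PPDK by 0.81, while the oil body lipase SDP1 did not pass (-0.32). Of 8 genes for breakdown of branched-chain amino acids and the linked electron transfer flavoprotein, 3 rose and 1 fell, with the flavoprotein subunit ETFALPHA at 0.64 and isovaleryl-CoA dehydrogenase IVD, which did not pass, at 0.31. Without control replicate 2, 1 of them rose. In ureide breakdown, which frees nitrogen from purines, AAH read 256, 234 and 340.0 in stressed hai1-2, against 1554, 1247 and 1512 in control hai1-2 (-2.32 ± 0.18) and ALN, allantoinase, changed by -1.86 ± 0.16, with no overlap in either. The other ureide gene tested, UGLYAH, did not pass (0.29 ± 0.28, limma adjusted p = 0.435), with overlapping arrays. DELTA-OAT, which links ornithine to the proline pathway, changed by 1.25 ± 0.12. Among 8 aldehyde dehydrogenases, which clear reactive aldehydes, 3 rose, 1 fell and 4 did not pass (median 0.16). ALDH3F1 was the fall (-0.59 ± 0.21, limma adjusted p = 0.0414), a call lost without replicates 1 or 2 of stressed hai1-2, control hai1-2 or stressed Col-0, with no filter and without the intensity trend. The rises were ALDH7B4 at 8087, 7577 and 8597 in stressed hai1-2, against 1405, 1885 and 1577 in control hai1-2 (2.31 ± 0.14), and ALDH10A9 and ALDH10A8 by 1.04 and 0.79.

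Autophagy transcripts rose by small and even steps. ATG8 proteins coat the membranes that carry cell contents to the vacuole, and ATG3 attaches them to lipid. Of 10 probe sets, 8 rose, none fell and 2 did not pass, with a median of 0.84. ATG8G read 436, 385 and 495 in stressed hai1-2, against 185, 138 and 212 in control hai1-2, a change of 1.24 ± 0.20 (limma adjusted p = 2.2e-04), and ATG8B, ATG8H and ATG8D changed by 1.2, 1.16 and 0.92. ATG8E stood apart at 373, 297 and 496 in stressed hai1-2, against 386, 1227 and 732 in control hai1-2, where a wide spread left it without a call (-0.86 ± 0.36, limma adjusted p = 0.0760), but it fell without control replicate 1. Serine carboxypeptidase-like genes, which include vacuolar proteases and acyltransferases, fell more often than they rose: of 18 tested, 2 rose, 7 fell and 9 were not called (median -0.33). In that family scpl31 read 27.1, 59.8 and 17.2 in stressed hai1-2, against 290.3, 529 and 662 in control hai1-2 (-3.34 ± 0.35), scpl25 changed by -1.81 and SCPL34 by -2.39, against rises of scpl48 (1.22) and SCPL49 (0.99).

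Photosynthesis transcripts of the nucleus fell together. All 10 photosystem and antenna probe sets fell, with a median of -0.82. PSBY, a small photosystem II subunit, read 3877, 3913 and 3885 in stressed hai1-2, against 18685, 13525 and 15085 in control hai1-2, a change of -2.0 ± 0.18 (limma adjusted p = 1.6e-06). PSAN, of photosystem I, changed by -1.44 ± 0.15 and LIL3:1, which stabilises enzymes of chlorophyll synthesis, by -1.43 ± 0.15, and the smallest fall was that of LIL3:2 (-0.62). None of the 10 showed overlap between stressed and control arrays, which adds little to their calls. Over all probe sets the stressed arrays lay below the control arrays for 23.3%, and among the 3031 called falls for 2978. All 4 genes of the Calvin cycle and photorespiration fell as well (median -1.34), with sedoheptulose bisphosphatase SBPASE at 3423, 3588 and 3891 in stressed hai1-2, against 13357, 10919.5 and 11126 in control hai1-2 (-1.69 ± 0.12), phosphoribulokinase PRK at -1.63 and Rubisco activase RCA at -0.96. Among 16 genes for assembly of the photosystems and cyclic electron flow, 7 fell and 9 did not pass (median -0.63), and 11 fell without control replicate 2. NdhN, a subunit of the chloroplast NDH complex, read 392, 424 and 497 in stressed hai1-2, against 2167, 1728 and 1766 in control hai1-2 and changed by -2.07 ± 0.16, while NdhS (0.22) and the photosystem II assembly factor PAM68 (-0.13) did not pass.

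Tetrapyrrole synthesis, the route to chlorophyll and haem, had 7 falls and no rise among 10 genes (median -1.19). CHLM, the methyltransferase of the chlorophyll branch, read 1695, 2221 and 1663 in stressed hai1-2, against 7274, 7254 and 7346 in control hai1-2, a change of -1.97 ± 0.18 (limma adjusted p = 1.4e-06). CHLI2, a subunit of magnesium chelatase, changed by -1.65 ± 0.14, protochlorophyllide oxidoreductase PORB by -1.26 ± 0.15, and the common-path enzymes HEMB1 and HEME2 by -1.18 and -1.35. HEMA2, a glutamyl-tRNA reductase of mainly non-green tissue, did not pass (-0.36).

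Genes encoded in the chloroplast itself moved less evenly. Of 68 tested, 13 fell, 1 rose and 54 did not pass, with a median of -0.58. The count of falls was near the share over all probe sets, of which 17.8% fell. The photosystem II gene psbK read 5569, 4939 and 3529 in stressed hai1-2, against 9857, 9277 and 9186 in control hai1-2 (-1.03 ± 0.23), and ndhK changed by -1.33 ± 0.32, while the ribosomal protein gene rpl32 was the rise, at 4418, 5461 and 5544 in stressed hai1-2, against 3087, 2949 and 2421 in control hai1-2 (0.86 ± 0.22). Wide spread between stressed arrays left others without a call: psaA read 4755, 4221 and 593 in stressed hai1-2, against 7639, 8916 and 4891 in control hai1-2, with replicate 3 far below the other two stressed arrays, and it fell only with the experiment as a block. The count of falls was 5 without stressed replicate 3, 7 without control replicate 1, 4 without control replicate 2 and 24 with the experiment as a block. Beside these falls the summed signal of 3 shoot markers (LHCB4.2, PSAN and RCA, of 9 listed) was 27554 to 33353 in stressed and 56517 to 66801 in control hai1-2, all 3 having fallen. That of 3 root markers (PYK10, EXPA7 and EXPA18, of 10 listed) was 20978 to 23210 in stressed and 14764 to 18260 in control hai1-2, and all 3 rose. PYK10 alone made up 20338 to 22285 of the root sum in stressed and 14639 to 18032 in control hai1-2, with a change of 0.40. PYK10 lost its call without control replicates 1 or 3 or any 1 stressed array, nor did it pass with median centring, without the filter or without the intensity trend, and EXPA18 without stressed replicate 1 or control replicate 1. The part of a shift between shoot and root in these results was not tested, and none of the seed, phloem or xylem markers listed was measured under a gene name.

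Genes that loosen and build the cell wall changed member by member. Among 14 expansins, which loosen walls, 4 rose, 4 fell and 6 did not pass (median -0.09), and 2 fell without stressed replicate 3. EXPA8 read 314, 217 and 251 in stressed hai1-2, against 2293, 836 and 1189 in control hai1-2, a change of -2.29 ± 0.36 (limma adjusted p = 2.0e-04), and EXLB1 read 3532, 5675 and 2879 in stressed hai1-2, against 1120.4, 853 and 1126 in control hai1-2, a change of 1.9 ± 0.28 (limma adjusted p = 1.4e-04). Their arrays separated fully and in opposite directions. XTH16, a xyloglucan endotransglucosylase, read 54.7, 83.6 and 137 in stressed hai1-2, against 509.7, 1897 and 726 in control hai1-2 and changed by -3.15 ± 0.42, against a rise of XTH20 (0.89). Of 7 GH9 glucanases tested, 4 fell and 1, GH9C1, rose (1.8), with GH9B13 at -1.21 and GH9B8 at -1.3. With no filter 5 of the 15 listed fell and 1 rose, with a median of -0.10. The glucomannan synthase CSLA03 read 80.2, 100.5 and 63.7 in stressed hai1-2, against 530.3, 944 and 559 in control hai1-2 and changed by -2.8 ± 0.26, while CSLD2, of root hair walls, changed by 0.81 and lost its call without stressed replicate 1. TBL45 stood apart in its family: of 18 TBL probe sets 2 rose, 4 fell and 12 did not pass (median -0.06), beside 17.8% falling over all probe sets. Without stressed replicates 2 or 3 or control replicate 2, 2 of them fell instead of 4, and without stressed replicate 3, 1 rose instead of 2.

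Cytoskeleton and division transcripts fell where they changed, with 1 exception. Of 5 beta-tubulins 4 fell and 1 did not pass (median -0.51). TUB5 read 711, 784 and 836 in stressed hai1-2, against 2611, 3035 and 3322 in control hai1-2, a change of -1.92 ± 0.16 (limma adjusted p = 8.1e-07), and TUB7 changed by -1.07 ± 0.13. IQD proteins, which bind calmodulin and microtubules, had 6 falls and 1 rise among 12 (median -0.60), with iqd21 at 83.7, 124 and 122 in stressed hai1-2, against 648, 510.4 and 485 in control hai1-2 (-2.17 ± 0.19) and IQD30 as the rise (0.96 ± 0.12). Among 16 genes of mitosis and DNA replication 5 fell and 11 did not pass (median -0.43), and 3 fell without stressed replicate 2. The microtubule bundling protein gene ATMAP65-6 changed by -1.31 ± 0.18, PRL, an MCM7 replication licensing factor, by -0.85 ± 0.17 and the Aurora kinase AUR1 by -0.61 ± 0.15. Topoisomerase TOPII (-0.53), which fell in 7 of 21 alternatives, among them the experiment as a block and the fits without replicate 3 of control Col-0 or replicate 2 of stressed Col-0, and the polymerase subunit POLA3 (-0.23) did not pass.

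**Figure D4:**
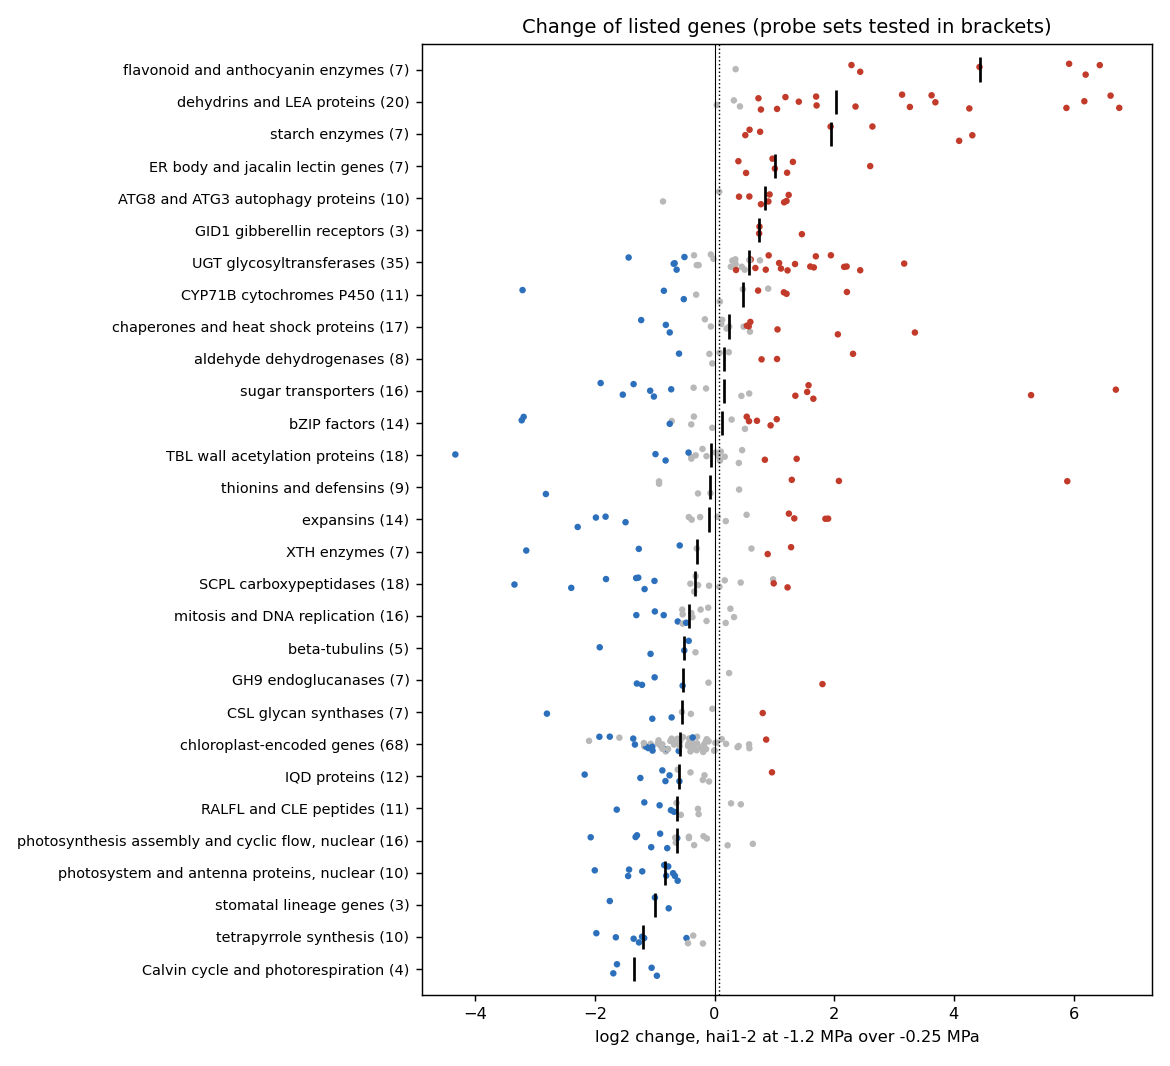
Log2 changes in hai1-2, -1.2 over -0.25 MPa, of the tested probe sets of 29 gene lists, ordered by median. Red points rose, blue points fell, grey points were not called, black ticks are list medians and the dotted line is the median of all probe sets (0.07). Medians run between 4.43 for flavonoid and anthocyanin enzymes and -1.34 for the Calvin cycle and photorespiration.

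Hormone and stomatal genes were few by name. All 3 GID1 gibberellin receptors rose, GID1B at 787, 659.7 and 608 in stressed hai1-2, against 177, 273 and 275 in control hai1-2 (1.46 ± 0.20, limma adjusted p = 6.4e-05), GID1A by 0.75 and GID1C by 0.75. All 3 stomatal lineage genes fell: SPCH, which starts the lineage, at 19.1, 15.5 and 15.8 in stressed hai1-2, against 107, 102 and 75.8 in control hai1-2 (-1.75 ± 0.23), the peptide gene STOMAGEN by -1.0 and the guard cell factor FMA by -0.77. FMA lost its call without stressed replicates 1 or 3 or control replicates 2 or 3. Among 12 auxin genes 3 fell and 9 did not pass (median -0.50), beside 17.8% falling over all probe sets. The count of falls was 0 to 1 without stressed replicates 1 or 3 or control replicates 2 or 3. With the experiment as a block 1 auxin gene rose. IAA29, an early auxin response gene, read 39.7, 64.6 and 13 in stressed hai1-2, against 63.9, 56.4 and 459.5 in control hai1-2 and was not called (-1.47 ± 0.71). RALF peptides alkalinise the wall and restrain growth, and CLE peptides act in meristems and vessels. Of 11 such genes 5 fell and 6 did not pass (median -0.63, or -0.27 over all 17 listed with no filter), with RALFL33 at 1127, 1192 and 1160.1 in stressed hai1-2, against 2308, 4596 and 4507 in control hai1-2 (-1.63 ± 0.29) and RALFL34 at -1.17, and 3 fell without stressed replicate 3.

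Defence peptides changed member by member, while ER body genes rose. Thionins and defensins are small antimicrobial peptides, and of 9 listed and tested, 3 rose, 1 fell and 5 were not called (median -0.07). A search of symbols and synonyms for these words matched 18 tested probe sets, so the 9 may be only a part of the group. The listed thionins THI2.1 and THI2.2 split, with THI2.1 at 5.89 and THI2.2 at 9.9, 44.9 and 42.1 in stressed hai1-2, against 263, 312 and 335 in control hai1-2 (-2.82 ± 0.31). PDF2.1 read 1365, 2104 and 1142 in stressed hai1-2, against 332, 382 and 309 in control hai1-2 and changed by 2.08 ± 0.21, while LCR69, with a mean signal of 10001 in stressed and 12062 in control hai1-2, did not pass. A second fall appeared without Col-0 control replicates 1 or 3, which share in the estimate of spread, and 3 fell in a fit of the 6 hai1-2 arrays alone. ER bodies are stores of beta-glucosidase held for defence, and all 7 of their genes and linked jacalin lectins rose (median 1.01). JAL23 read 609.7, 749 and 439 in stressed hai1-2, against 96.8, 74 and 80 in control hai1-2 (2.6 ± 0.30), JAL33 changed by 1.21 ± 0.15, JAL22 by 1.31 ± 0.21 and NAI2, a body component, by 1.01 ± 0.17. NAI1, the factor that regulates them, rose by 0.53 with overlapping arrays (limma adjusted p = 0.0485), and lost its call in 12 of 21 alternatives, among them those without any 1 of the hai1-2 arrays other than control replicate 2, without replicate 3 of stressed Col-0 and without replicate 1 of control Col-0. PYK10, the beta-glucosidase of ER bodies and also a root marker above, had the smallest rise (0.40) and lost its call in 8 of 21 alternatives. Without the filter 5 of the 7 rose. In aliphatic glucosinolate synthesis, a separate chemical defence, BCAT4 read 2997, 2574 and 1938 in stressed hai1-2, against 6911, 4242 and 5946 in control hai1-2 (-1.18 ± 0.24).

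Redox and P450 families held changes of both signs. GSTU18, a tau-class glutathione transferase, read 472, 388 and 444 in stressed hai1-2, against 1268, 951 and 989 in control hai1-2, a change of -1.26 ± 0.16 (limma adjusted p = 2.8e-05). Of 11 such transferases 4 fell, 1 rose and 6 did not pass (median 0.18), with GSTU20 at -0.94 and GSTU16 at 0.77. Rises numbered 3 with the experiment as a block and 2 without any 1 of control replicates 2 and 3 and Col-0 control replicates 1 and 3, and 2 with the 6 arrays alone. CYP71B22 read 8.0, 47.9 and 7.9 in stressed hai1-2, against 199.5, 362 and 338 in control hai1-2 (-3.21 ± 0.43) and CYP71B26 read 1486, 1123 and 1702 in stressed hai1-2, against 569.6, 216 and 201 in control hai1-2 (2.21 ± 0.36), opposite changes within 1 subfamily of which 4 rose and 3 fell among 11. Without stressed replicate 1, 1 of the subfamily fell. The glutaredoxin GRXC1 changed by 1.33 ± 0.18 and ROXY2, a plant-specific glutaredoxin, by -1.29 ± 0.29. BHLH101, a factor of the iron deficiency response, read 268, 342 and 232 in stressed hai1-2, against 69.7, 8.5 and 38.9 in control hai1-2 (2.59 ± 0.43), and the other 9 genes of iron regulation and uptake did not pass, though a second rose and 1 fell with the experiment as a block and without control replicate 1, and a second rose without Col-0 control replicate 3.

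Among transcription factor families, bZIP genes gave 5 rises and 3 falls of 14 tested (median 0.12). BZIP34 fell to the floor at 1.3, 3.4 and 5.4 in stressed hai1-2, against 114, 162 and 236 in control hai1-2, a change of -3.22 ± 0.27 (limma adjusted p = 7.1e-07), and its close relative BZIP61 read 77.8, 197 and 129 in stressed hai1-2, against 736, 1652 and 1728 in control hai1-2 (-3.19 ± 0.39). No stressed array of either came near a control array. BZIP60 and BZIP17, both of the response to unfolded proteins in the ER, changed by 1.04 and 0.58, while BZIP28 of the same response did not pass (0.29). Seed-type EEL changed by 0.94. WRKY22, of immune signalling, read 120.3, 109.6 and 89.2 in stressed hai1-2, against 311, 559.8 and 441 in control hai1-2 and changed by -1.86 ± 0.42. It was the only fall among 6 WRKY factors tested, of which 1 rose and 4 did not pass.

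Families of general cell upkeep showed mostly small changes. Of 17 exocyst and ESCRT membrane-traffic subunits 4 rose, with changes of all members between -0.45 and 0.53 (median 0.04), and between 0 and 2 rose when any 1 hai1-2 array or stressed Col-0 array was left out. The share that rose over all probe sets was 19.9%. Of 12 nuclear RNA polymerase subunits 2 rose (median 0.28), NRPB6B by 0.90 and NRPB6A by 0.67, and 4 did without Col-0 control replicates 2 or 3 or with the 6 arrays alone.

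A few smaller families held single large changes. TET10, of the tetraspanins, which organise patches of the plasma membrane, read 100.0, 115 and 103 in stressed hai1-2, against 543, 969.8 and 689 in control hai1-2, a change of -2.58 ± 0.19 (limma adjusted p = 2.8e-07). It and TET7 (-0.83) were the falls among 8 tetraspanins, of which 2 others rose, a count that was 0 to 1 without stressed replicates 1 or 2 or control replicates 1 or 2. Among 12 BGLU glucosidases, which release sugars from stored or defensive compounds, 5 rose and 3 fell (median 0.06). BGLU25 read 1476, 1268 and 1081 in stressed hai1-2, against 296, 376 and 445 in control hai1-2 and changed by 1.74 ± 0.17, and BGLU45, which acts on lignin precursors, changed by 1.67 ± 0.27. Rises numbered 3 without stressed replicates 1 or 3 or control replicate 1, and falls 1 without stressed replicate 2. The calcium sensor CML42 changed by -1.42 ± 0.28, and the ubiquitin ligase PUB26 read 128, 104 and 107 in stressed hai1-2, against 409.7, 291 and 336 in control hai1-2 and changed by -1.48 ± 0.23. CML42 was 1 of 2 falls among 6 calmodulin-like proteins tested, of which 0 rose. PUB26 was the only fall among 8 PUB ligases, of which 2 rose, PUB19 among them. In TET10, BGLU25, BGLU45, CML42 and PUB26 the stressed arrays did not overlap the control arrays.

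Nearly as many called probe sets had no gene name as had 1. Among the 7308 tested that are paired with no gene, 1529 rose and 1466 fell, against 1774 and 1528 among the 9396 paired with 1 gene. By share, calls were thus more frequent among those with no gene. The largest rise of all, 247718_at, read 24784, 29961 and 25288 in stressed hai1-2, against 3.4, 512.7 and 46.3 in control hai1-2, a change of 8.27 ± 0.88. Its control arrays differed widely from each other, and all 3 lay far below the stressed arrays. 248352_at read 8874, 8088 and 12644 in stressed hai1-2, against 83.6, 112.1 and 41.3 in control hai1-2, a change of 6.75 ± 0.25. The largest falls of this kind were 256766_at at -5.44 ± 0.47 and 247162_at at -4.89 ± 0.51, and in both stressed replicate 1 was again the lowest array, at 38.9 and 23.

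Whether hai1-2 responded otherwise than the wild type was asked with the interaction term, the change in hai1-2 minus the change in Col-0. It was called for 1 of 17059 probe sets (0.00586%), while 732 reached an unadjusted p under 0.05, where chance gives 853. With the hai1-2 and Col-0 arrays of each experiment and water potential as pairs, an alternative added after seeing the data, the same probe set alone was called. There 1259 reached an unadjusted p under 0.05, against the same 853 by chance. A missing call does not show equal responses: the margin of the 95% interval on either side of the difference had a median of 0.60, and the interval lay within 1 on either side of 0 for 11723 probe sets (68.7%). These and the intervals below are of the fit without pairs. With pairs the median margin was 0.52. Calls made in each genotype apart gave 3083 rises (18.1%) and 2755 falls (16.1%) in Col-0. For 234 probe sets a call of at least 2-fold in hai1-2 met no call in Col-0, a count of separate calls and not of tested differences. None of the listed genes above was called for the interaction.

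The called probe set was 247723_at, which the annotation pairs with no gene. It may measure HAI1, which could not be checked here. It read 373, 256 and 349 in stressed hai1-2, against 111, 110.1 and 97.1 in control hai1-2, a change of 1.47. In Col-0 it read 2603, 3125 and 3174 under stress, against 130.2, 164 and 94.5 on control plates, a change of 4.38, so the difference was -2.91, with a 95% interval of -3.49 to -2.32 (limma adjusted p = 9.0e-04). Stressed arrays lay above control arrays in hai1-2 too.

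Named genes with the lowest interaction p all missed the adjusted threshold (limma adjusted p = 0.99 each). They were picked by that p, and the 95% intervals are not adjusted for the choice. An interval here that leaves out 0 is thus no added support. AT1G76280, of the pentatricopeptide repeat proteins, read 118, 104 and 78.8 in stressed hai1-2, against 27.3, 18 and 9.5 in control hai1-2, and 75.4, 77.1 and 59.3 in stressed Col-0, against 82.4, 48.5 and 68.9 in control Col-0. Its change was 1.78 in hai1-2 and 0.08 in Col-0, a difference of 1.69, with a 95% interval of 0.92 to 2.47. AT3G03620, a MATE-type transporter gene, changed by 3.68 in hai1-2 and 2.12 in Col-0, a difference of 1.56, with a 95% interval of 0.69 to 2.43. In the other direction AT4G14060 changed by 0.64 in hai1-2 and 1.92 in Col-0, a difference of -1.28, with a 95% interval of -1.84 to -0.72. ECS1, a wall protein gene linked to pathogen response, fell in both genotypes and read 2063, 2868 and 3173 in stressed hai1-2, against 23686, 19915 and 22587 in control hai1-2 (-3.04 in hai1-2 and -2.04 in Col-0, a difference of -1.0, with a 95% interval of -1.52 to -0.48). AT2G25510 likewise changed by -3.61 in hai1-2 and -2.45 in Col-0.

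**Figure D5:**
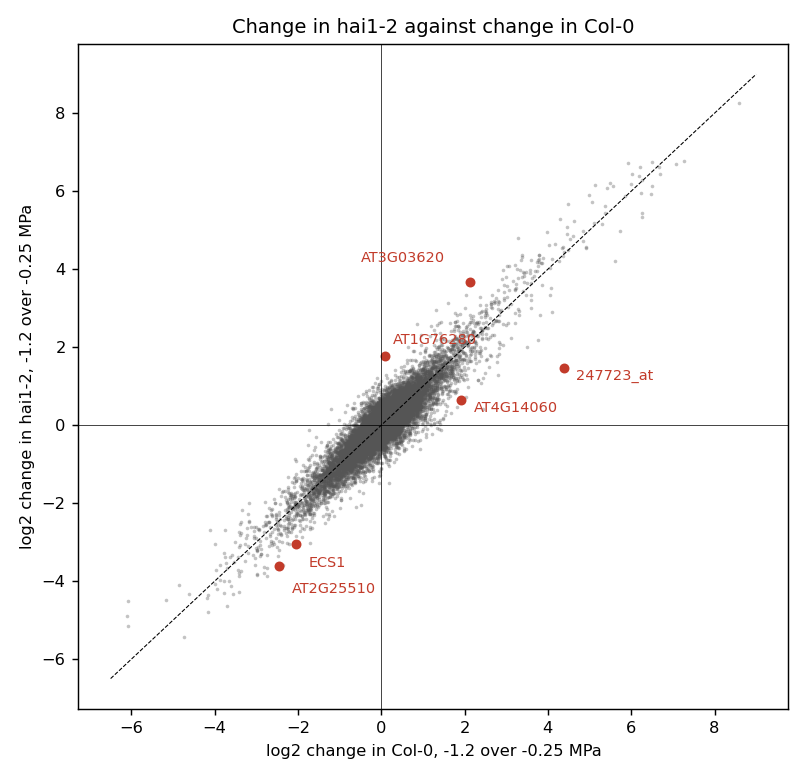
Log2 change, -1.2 over -0.25 MPa, in hai1-2 (vertical axis) against that in Col-0 (horizontal axis) for 17059 probe sets, with the dashed line where both are equal. Red points mark 247723_at, the only interaction call (1.47 in hai1-2 and 4.38 in Col-0), and 5 named genes among those of lowest interaction p, none of which was called.

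The medians of a list in hai1-2 and in Col-0 lay within 0.3 of each other for 41 of 51 lists. LEA proteins and dehydrins stood at 2.03 in hai1-2 and 1.79 in Col-0, anthocyanin enzymes at 4.43 and 4.38, starch enzymes at 1.94 and 1.77, and photosystem and antenna genes at -0.82 and -0.72. The distance was over 0.4 for 7 lists. The median was lower in hai1-2 for expansins (-0.09 in hai1-2 and 0.75 in Col-0), vacuolar processing enzymes (0.98 and 1.62), XTH enzymes (-0.30 and 0.22), thionins and defensins (-0.07 and 0.43), GH9 glucanases (-0.53 and -0.095) and RALF and CLE peptides (-0.63 and -0.20). It was higher in hai1-2 for autophagy genes (0.84 and 0.42). These medians are of the probe sets that passed the filter. With no filter the hai1-2 median was -0.14 for expansins, -0.12 for XTH enzymes, -0.10 for GH9 glucanases and -0.27 for RALF and CLE peptides. Col-0 medians were not taken without the filter, so these values cannot be set against the Col-0 medians above. The differences of medians between genotypes were not tested, and the interaction term called no member of any of these lists.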

How the data were processed

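Biotin-labelled cRNA of whole seedlings was hybridised to 12 one-colour arrays of 22810 probe sets. The authors deposited 1 signal intensity per probe set and array, linear and not log-transformed. MAS5 made these values, per the submitters' processing notes, and the sources used here do not state its version or settings. The 3 experiments gave 1 sample to each group, so replicate numbers pair samples: deviations from group means correlated at -0.0199 to 0.0886 between stressed and control hai1-2 arrays of the same number, and at -0.153 to 0.117 for different numbers. Between genotypes, arrays of the same number and water potential correlated at 0.227 to 0.263 under stress and at 0.128 to 0.517 on control plates.

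Signals were taken as log2(value + 16), 64 Affymetrix control probe sets and the lowest 25% by mean log2 (5687) were left out, and limma 3.58.1 (R 4.3.3) estimated group means from the 12 arrays jointly, with an intensity trend. Tests were two-sided, with Benjamini-Hochberg adjustment over 17059 probe sets. The fit had no block, and alternatives are given at the end. The number of arrays, 3 per group, limits precision. Nothing in the labels says how many seedlings a sample pooled. Simulated data for this comparison held 17059 probe sets with independent normal noise. In them 100 changed by log2 size 1 and 100 by size 2, in either direction. The fit recovered 62% of changes of size 1 and 97% of those of size 2, with 3 false calls. Far fewer probe sets changed there than the 37.6% called here, so these rates do not carry over to the calls above.

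Genes were named from the platform's annotation and TAIR10.1, where a probe set had 1 gene (9396 of those tested, with several for 355 and none for 7308). Named were the 10 largest changes and the 10 of lowest p in each direction, the list members of lowest p, the largest unnamed changes and the lowest interaction p. The reference held no gene descriptions, so lists planned as word searches were replaced by lists of symbols and loci (51 lists, 566 probe sets tested), and promoters were not examined. The members, lists and groupings were chosen with earlier results of these data known.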

Additional observations from a re-analysis of the deposited data

Results flagged for a closer look

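The probe set 247723_at was singled out because its change differed between genotypes in the interaction test. Its log2 change in hai1-2 minus that in Col-0 was -2.91 (limma adjusted p = 9.0e-04), with a change of 1.47 in hai1-2 and 4.38 in Col-0. The annotation used here pairs it with no gene. It may measure HAI1, the gene mutated in hai1-2, which could not be checked here. With 3 arrays per group, samples were not examined for single outlying values.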

How the results depend on the processing

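Without 1 array at a time, 2638 to 3672 probe sets rose and 2545 to 3218 fell in hai1-2, and 79.7% to 99.3% of the 6421 calls kept their direction and side of the threshold. With the experiment as a replicate block 3520 rose and 3167 fell (98.0% of the calls kept). Where the block changed the call of a gene named in the text, this is given beside its result. Quantile normalization gave 3170 rises and 3267 falls and median centring 2902 and 3379, so falls then outnumbered rises. With pseudocounts of 1 and 64, with no filter, without the intensity trend or from the 6 hai1-2 arrays alone, 3252 to 3527 rose and 2980 to 3141 fell. Removing the lower 50% of probe sets left 2565 and 2354 from fewer probe sets tested. Requiring a 2-fold change left 1265 and 1436. The interaction was called for 247723_at under every alternative that held Col-0 arrays, with differences of -3.07 to -2.72 (limma adjusted p = 1.5e-04 to 0.00840), and for no other probe set. With genotypes paired within each experiment and water potential its adjusted p was 5.2e-04.

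These genes, none of them called, changed sign under some alternatives. COR15B stood at -0.020 with quantile normalization and -0.027 with median centring, and DI19 at 0.12 with quantile normalization. Without 1 array at a time, COR15B ran from -0.14 to 0.16, DI19 from -0.27 to 0.071, STZ from -0.75 to 0.63, SWEET17 from -0.28 to 0.048, IVD from -0.037 to 0.49, ATG3 from -0.030 to 0.18 and PAM68 from -0.23 to 0.0017. The cause was not tested. In the dimmest of 4 equal groups by mean signal 14.8% of probe sets rose and 11.8% fell, and 3 arrays per group limit precision at every level.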
